A study of Mus musculus with 160 samples.

Results

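RNA levels of 6 genes linked to neutrophil recruitment were described here in the mouse colon, and recruitment itself was not measured. *Cxcl1*, *Cxcl2*, *Cxcl3*, *Cxcl5* and *Ppbp* encode chemokines of the kind that draw neutrophils, and *Csf3* encodes granulocyte colony-stimulating factor (G-CSF). The members were taken by name from the 39179 genes counted in every library, and all 6 were found. Each was described in all 160 distal colon libraries of 4 whole-animal knockout lines.

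The chemokines bind the receptor Cxcr2 on neutrophils, and they are released by epithelial, stromal and myeloid cells when interleukin-1, tumour necrosis factor or interleukin-17 reaches those cells. *Ppbp*, the source of neutrophil-activating peptide, is best known from platelets and their precursors. G-CSF acts on bone marrow through its receptor Csf3r and raises the output of neutrophils. Messenger RNAs of this family are short-lived, and their amount in inflamed tissue can change quickly.

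The 5 chemokine genes lie on the forward strand of mouse chromosome 5 within 146.6 kb (GRCm38, the build called mm10), and *Csf3* lies on chromosome 11. From the annotation, *Cxcl5* (ENSMUSG00000029371) spans chr5:90759360-90761624, *Ppbp* (ENSMUSG00000029372) chr5:90768518-90770063, and *Cxcl3* (ENSMUSG00000029379) chr5:90786103-90789600. *Cxcl1* (ENSMUSG00000029380) spans chr5:90891241-90893115, *Cxcl2* (ENSMUSG00000058427) chr5:90903871-90905938 and *Csf3* (ENSMUSG00000038067) chr11:98701263-98703629. *Cxcl1* and *Cxcl2* are 10.8 kb apart, and *Cxcl5* and *Ppbp* are 6.9 kb apart.

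Promoter sequence was at hand for 4 of the 6 members, from RefSeq on GRCm38.p6, while *Cxcl5* and *Csf3* had no entry. The 100 bases shown end 21 bases before the RefSeq start, and they are given because the levels of *Cxcl1*, *Cxcl2* and *Cxcl3* were closely correlated over these libraries, with *Ppbp* beside them as the fourth chemokine of the cluster that had an entry. They lie at chr5:90891125-90891224 for *Cxcl1*, chr5:90903779-90903878 for *Cxcl2*, chr5:90785981-90786080 for *Cxcl3* and chr5:90768398-90768497 for *Ppbp*, all on the forward strand. Capitals mark GGAATTTCC, a form of the site to which NF-kB binds, and ATAAAA, a form of the TATA box.
Cxcl1: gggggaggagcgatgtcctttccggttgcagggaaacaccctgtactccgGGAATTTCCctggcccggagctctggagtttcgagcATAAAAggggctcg
Cxcl2: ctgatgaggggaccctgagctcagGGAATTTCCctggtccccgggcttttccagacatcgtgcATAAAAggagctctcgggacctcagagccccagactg
Cxcl3: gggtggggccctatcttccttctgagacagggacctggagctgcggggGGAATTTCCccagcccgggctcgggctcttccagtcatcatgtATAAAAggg
Ppbp: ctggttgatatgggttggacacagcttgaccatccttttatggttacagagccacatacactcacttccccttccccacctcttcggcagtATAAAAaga

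The first motif was searched on both strands (GGAATTTCC or GGAAATTCC), and the second on the strand of the gene. GGAATTTCC began 66, 68 and 74 bases before the annotated start of *Cxcl1*, *Cxcl2* and *Cxcl3*, respectively, and was not among the letters of the 300-base *Ppbp* window. Of 32851 promoter windows of the same length, 104 (0.317%) held it. ATAAAA began 29 to 31 bases before the annotated start of all 4 genes and was held by 3635 windows (11.1%). These matches describe letters only and were not tested for binding.

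All groups came from 4 lines in which knockout (KO) and wild-type (WT) mice were litter mates from crosses of heterozygotes, used at 8 to 10 weeks of age. In the *Nckap1l* line (labelled HEM1, strain C57BL6/J), 16 knockout and 15 wild-type samples were taken on day 12, after 5 days in which dextran sulfate sodium (DSS) was given to the treated mice and 7 days of water. The *Dock2* line (C57BL6/J, 18 knockout and 24 wild type, 3% DSS), the *Gpsm3* line (C57BL6/J, 20 and 20, 3% DSS) and the *Dok3* line (labelled 129, 26 and 21, 3.5% DSS) were sampled on day 10, after 5 days of DSS and 5 of water. The labels give no dose for *Nckap1l*, and by the methods of the study it was slightly lower than in the other lines. For *Dok3* the labels give 3.5%, while by the methods 3% was used in a first round and 3.5% after it. The round of each sample is not told. Samples of the *Gpsm3* and *Dok3* lines were labelled male, and females numbered 4 knockout and 8 wild type in *Nckap1l* and 8 and 12 in *Dock2*. DSS, a polymer in the drinking water, injures the epithelium and causes colitis. The labels and the methods of the study do not tell which samples received it, so each group mixes both, and a difference in the share of treated mice cannot be told apart from an effect of genotype, line or day. Each sample was whole tissue from the last 2 cm of the colon, and in such bulk RNA fewer cells of a type and less RNA per cell cannot be told apart.

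Total counts per library ran from 4344988 to 19993833 with a median of 15989625, and 3 counts corresponded to between 0.15 and 0.69 CPM, the unit in which the counts of a gene are scaled to the total of its library. The CPM were further scaled by the trimmed mean of M-values (TMM). The colon epithelium markers were present, with 8 of 8 at a median of 1 CPM or more and a summed level of 1509 to 19700 CPM. The targeted gene had a lower median in the knockout than in the wild type of each line (14.8 against 27.2 CPM for *Nckap1l*, 22.5 against 34.2 for *Dock2*, 0.572 against 3.21 for *Gpsm3* and 3.16 against 3.63 for *Dok3*), but the ranges overlapped in every line. In 5 libraries of the *Dok3* line labelled male, the sex markers went against the label. Skin keratins stood apart in 32 libraries, where *Krt5* and *Krt14* together reached 395.2 to 7289 CPM, against at most 30.9 in the other 128. These 32 comprised 7 knockout and 8 wild-type libraries of *Nckap1l*, 1 and 4 of *Dock2*, 2 and 1 of *Gpsm3* and 4 and 5 of *Dok3*, and the fits were also made without them.

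All 6 members were low in most libraries and very high in a few. *Cxcl5* was counted in all 160 libraries, with a lowest level of 0.527, a median of 6.67 and a highest of 423.3 CPM. *Cxcl1* was also counted in every library, at 0.0565 to 61.1 CPM with a median of 1.23 CPM. *Cxcl2* had a median of 0.362 CPM, was at 0 counts in 15 libraries and reached 715.2 CPM. Of these 3, *Cxcl2* had the lowest median and the highest peak. *Cxcl3* had a median of 0.148 CPM, was at 0 counts in 49 libraries and reached 297.9 CPM. *Ppbp* had a median of 0.368 CPM, was at 0 counts in 4 libraries and reached 569.4 CPM. *Csf3* had a median of 0.123 CPM, was at 0 counts in 36 libraries and reached 51.9 CPM. At least 3 counts were found for *Csf3* in 62 libraries and for *Cxcl3* in 79, so in the remaining libraries their levels were within the counting error of 0.

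The spread of the members was among the widest of all genes. The standard deviation of log2 CPM over the 160 libraries was 3.21 for *Ppbp*, 2.81 for *Cxcl2*, 2.58 for *Cxcl3*, 2.21 for *Cxcl5*, 1.81 for *Csf3* and 1.75 for *Cxcl1*, while the median over 19849 genes was 0.4. A smaller standard deviation was found for 99.6% of these genes in the case of *Ppbp* and for 97.0% in the case of *Cxcl1*, with the other members between these values. Per kilobase of exon, the median level was highest for *Cxcl5*, at 3.58 CPM per kb, followed by *Cxcl1* at 0.657 and *Ppbp* at 0.340 CPM per kb. It was 0.175 for *Cxcl2*, 0.0868 for *Csf3* and 0.0423 CPM per kb for *Cxcl3*. *Cxcl5* made up a median of 65.1% of the summed level per kilobase of the 5 chemokines and was the largest in 124 of 160 libraries. *Ppbp* was the largest in 33 libraries and *Cxcl2* in 3. The exon length used for *Cxcl1*, *Cxcl2* and *Cxcl3* (1875, 2068 and 3498 bases) equals the whole span of the gene. For *Cxcl5* and *Ppbp* it is shorter than the span (1863 and 1083 bases). The levels per kilobase of *Cxcl1*, *Cxcl2* and *Cxcl3* may thus be too low, and the shares of *Cxcl5* and *Ppbp* too high.

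High levels of *Cxcl1*, *Cxcl2*, *Cxcl3* and *Csf3* lay within those of *Cxcl5*. A level over 10 CPM was reached by *Cxcl5* in 64 libraries, *Ppbp* in 31, *Cxcl2* in 21, *Cxcl3* in 20, *Cxcl1* in 17 and *Csf3* in 6. All 17, 21 and 20 libraries with *Cxcl1*, *Cxcl2* or *Cxcl3* over 10 CPM also had *Cxcl5* over 10 CPM. All 6 libraries with *Csf3* over 10 CPM had *Cxcl1*, *Cxcl2* and *Cxcl5* over 10 CPM as well, and 5 of them had *Cxcl3* over it. *Cxcl2* was over 10 CPM in 13 of the 17 libraries with high *Cxcl1* and in 16 of the 20 with high *Cxcl3*. Of the 31 libraries with *Ppbp* over 10 CPM, 18 had *Cxcl5* over it, 11 *Cxcl3*, 7 *Cxcl2*, 6 *Cxcl1* and 2 *Csf3*.

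The library of *Dok3* knockout replicate 17 had the highest levels of *Cxcl1* (61.1 CPM), *Cxcl2* (715.2), *Cxcl3* (297.9) and *Csf3* (51.9) of all 160, whereas its *Ppbp* level was 2.35 CPM. The neutrophil gene *S100a8* stood at 3221 CPM in this library, and *Krt5* and *Krt14* together at 3.11 CPM. The next library in *Cxcl2*, *Dok3* wild type replicate 18, had 262.7 CPM of it with 10.49 CPM of *Cxcl1*, 8.08 CPM of *Csf3* and 1527 CPM of *S100a8*. *Dock2* wild type replicate 13 had 54.0 CPM of *Cxcl1*, 101.5 CPM of *Cxcl2* and 254.9 CPM of *Cxcl5*. Single libraries of this kind decided several values given below.

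**Figure D1:**
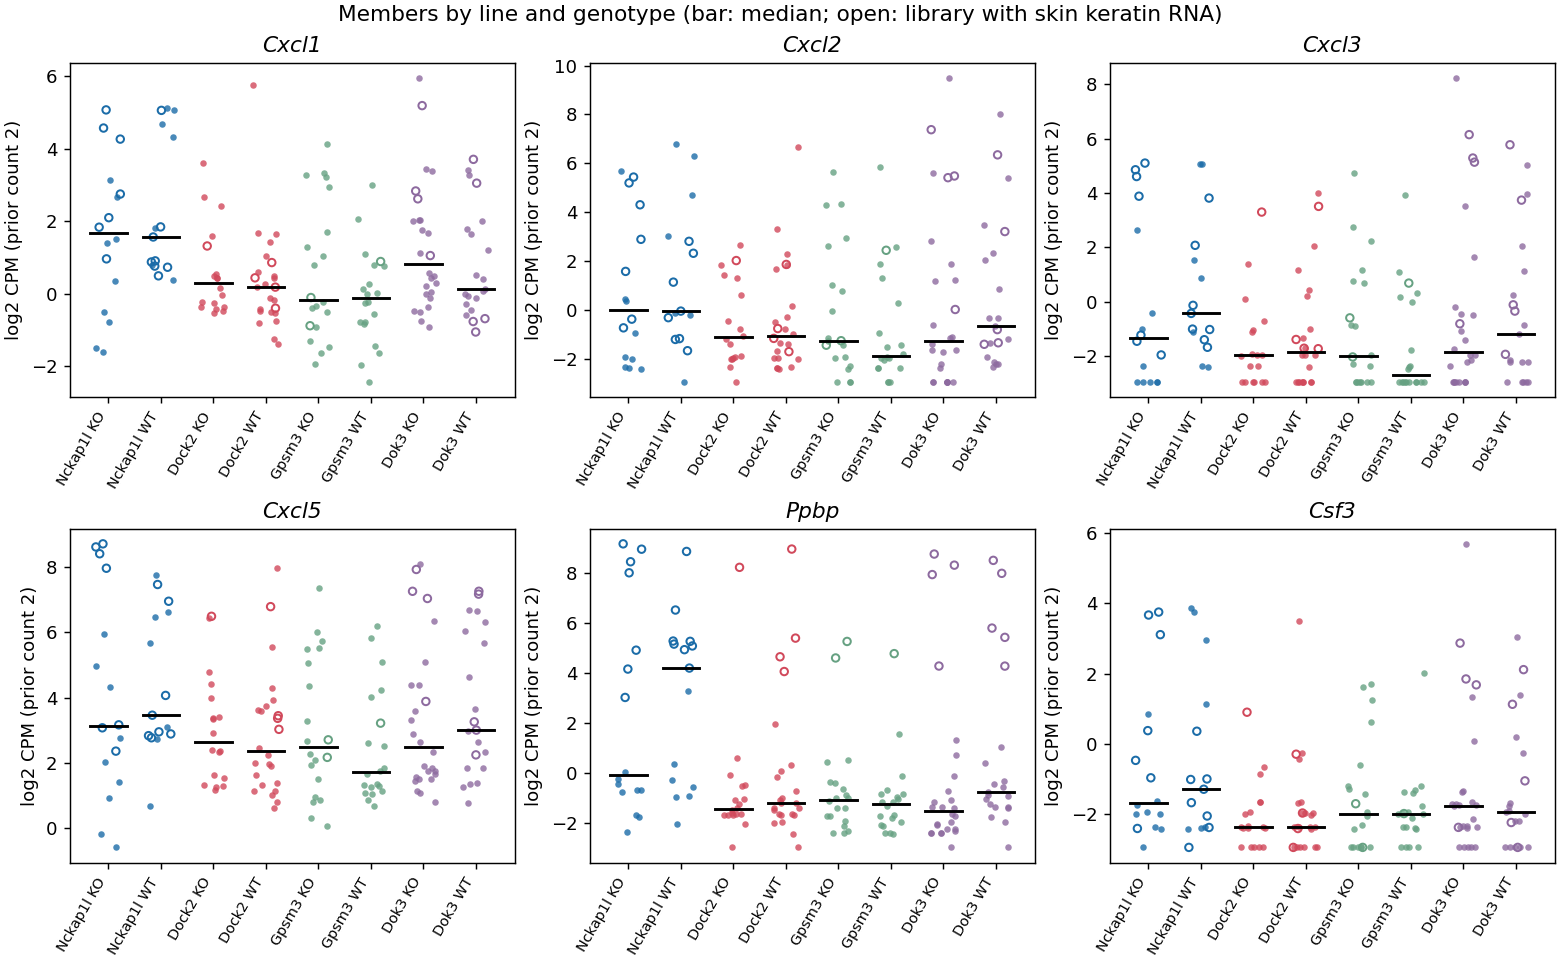
Level of each member in every library by line and genotype, with 1 point per library, open where it holds skin keratin RNA, and a bar at the group median, in log2 CPM with a prior count of 2 (y axis). In every line the knockout and wild-type points overlap, most points lie low, and a few libraries lie far above the rest, up to 715.2 CPM for *Cxcl2*.

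The first question was whether loss of each gene changed the members in the colon. In the *Nckap1l* line, *Cxcl1*, the early chemokine of the family, ran from 0.198 through a median of 3.06 to 33.4 CPM in knockout and from 1.17 through 2.82 to 34.3 CPM in wild type. *Cxcl2*, which myeloid cells make in quantity, ran from 0.0570 through 0.899 to 51.0 CPM in knockout and from 0 through 0.832 to 109.1 CPM in wild type. *Cxcl3* ran from 0 through 0.265 to 34.1 CPM in knockout and from 0.0585 through 0.610 to 33.3 CPM in wild type. The groups overlapped over nearly their whole ranges for all of these. *Cxcl5*, a chemokine of epithelial cells, ran from 0.527 through 8.54 to 423.3 CPM in knockout and from 1.46 through 10.85 to 218.4 CPM in wild type. *Ppbp* ran from 0.0659 through 0.822 to 569.4 CPM in knockout and from 0.117 through 18.2 to 461.5 CPM in wild type. *Csf3* ran from 0 through 0.181 to 13.4 CPM in knockout and from 0 through 0.278 to 14.6 CPM in wild type. The median of *Ppbp* was thus higher in the wild type, while the highest library was a knockout.

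None of the 4 members that could be tested was called in the *Nckap1l* line. Of 17947 genes tested with edgeR's quasi-likelihood test, 0 (0.0%) passed an adjusted p of 0.05, 807 had an unadjusted p under 0.05, and DESeq2 called 5 and limma-voom 0. The log2 difference (KO minus WT) was -0.61 ± 0.70 (SE) for *Cxcl1*, -0.51 ± 1.09 for *Cxcl2*, 0.83 ± 0.88 for *Cxcl5* and 2.07 ± 1.25 for *Ppbp*, with an adjusted p of 1.0 for each in edgeR. *Cxcl3* and *Csf3* were too low to pass the filter of this fit. Within the 3 runs of sample numbers in the titles of this line, *Cxcl5* differed by 3.01 ± 1.11, -0.05 ± 1.36 and -2.87 ± 3.28, and *Cxcl1* by 1.23, -1.06 and -2.50, with no call. Without the 15 libraries of this line that held skin keratin RNA, the difference was -2.95 ± 0.90 for *Cxcl1* and -2.62 ± 1.09 for *Cxcl5*, at adjusted p of 0.36 and 0.361 in edgeR.

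In the *Dock2* line the levels were lower. *Cxcl1* ran from 0.565 through a median of 1.11 to 12.05 CPM in knockout and from 0.253 through 1.00 to 54.0 CPM in wild type. *Cxcl2* ran from 0 through 0.327 to 6.11 CPM in knockout and from 0.0590 through 0.345 to 101.5 CPM in wild type. *Cxcl3* ran from 0 through 0.124 to 9.68 CPM in knockout and from 0 through 0.1485 to 15.7 CPM in wild type. The wild type held the highest library for each of these, and the medians lay close together. *Cxcl5* ran from 2.12 through 6.21 to 90.3 CPM in knockout and from 1.40 through 4.96 to 254.9 CPM in wild type. *Ppbp* ran from 0 through 0.247 to 297.5 CPM in knockout and from 0 through 0.315 to 493.2 CPM in wild type. *Csf3* ran from 0 through 0.0653 to 1.74 CPM in knockout and from 0 through 0.0646 to 11.2 CPM in wild type, so most libraries were below the level of 3 counts. Of 17648 genes, 6 (0.034%) were called, none of them a member. The differences were -0.30 ± 0.56 for *Cxcl1* and -0.34 ± 0.63 for *Cxcl5* (adjusted p of 1.0 each, edgeR). Without wild type replicate 13 they turned to 0.90 ± 0.37 and 0.45 ± 0.56, at adjusted p of 0.675 and 0.967.

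In the *Gpsm3* line, *Cxcl1* ran from 0.129 through a median of 0.762 to 17.2 CPM in knockout and from 0.0565 through 0.795 to 7.77 CPM in wild type. *Cxcl2* ran from 0 through 0.282 to 50.1 CPM in knockout and from 0 through 0.1405 to 56.9 CPM in wild type. *Cxcl3* ran from 0 through 0.121 to 26.7 CPM in knockout and from 0 through 0.0253 to 15.05 CPM in wild type. All ranges overlapped, and the medians of these 3 genes were below 1 CPM. *Cxcl5* ran from 0.915 through 5.46 to 164.2 CPM in knockout and from 1.47 through 3.11 to 73.9 CPM in wild type. *Ppbp* had no library as high as in the other lines, and ran from 0.0618 through 0.353 to 38.2 CPM in knockout and from 0.0604 through 0.297 to 27.3 CPM in wild type. *Csf3* ran from 0 through 0.120 to 3.15 CPM in knockout and from 0 through 0.121 to 3.89 CPM in wild type. Of 17560 genes, 1 (0.00569%) was called, and it was no member. *Cxcl1* differed by 1.33 ± 0.55, a 2.51-fold higher fitted level in knockout (unadjusted p = 0.0206, adjusted p = 0.936, edgeR), and by 1.31 and 1.33 within the 2 runs of sample numbers. *Cxcl5* differed by 0.95 ± 0.63 (adjusted p = 0.936, edgeR). The neutrophil list had none of 9 tested genes called in this line, with a median log2 difference of 0.85, and its part in the *Cxcl1* value was not tested.

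The highest values of *Cxcl1*, *Cxcl2*, *Cxcl3* and *Csf3* in the series were found in the *Dok3* line. *Cxcl1* ran from 0.403 through a median of 1.65 to 61.1 CPM in knockout and from 0.352 through 0.962 to 12.9 CPM in wild type. *Cxcl2* ran from 0 through 0.285 to 715.2 CPM in knockout and from 0.0668 through 0.502 to 262.7 CPM in wild type. *Cxcl3* ran from 0 through 0.150 to 297.9 CPM in knockout and from 0 through 0.307 to 54.5 CPM in wild type. For *Cxcl2* and *Cxcl3* the median was higher in wild type and the highest library was a knockout. *Cxcl5* ran from 1.61 through 5.46 to 275.8 CPM in knockout and from 1.57 through 7.86 to 153.9 CPM in wild type. *Ppbp* ran from 0 through 0.227 to 429.5 CPM in knockout and from 0 through 0.461 to 360.6 CPM in wild type. *Csf3* ran from 0 through 0.166 to 51.9 CPM in knockout and from 0 through 0.129 to 8.08 CPM in wild type. None of 17612 genes passed (0.0%), 386 had an unadjusted p under 0.05, and DESeq2 and limma-voom called 0 each.

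The *Dok3* differences were 1.07 ± 0.56 for *Cxcl1* (unadjusted p = 0.0623), 1.00 ± 1.05 for *Cxcl2* and 0.11 ± 0.66 for *Cxcl5*, each with an adjusted p of 1.0 in edgeR. Without knockout replicate 17 they were 0.47 ± 0.50, -0.62 ± 0.95 and -0.26 ± 0.65. Within the first and second run of sample numbers, *Cxcl1* differed by 1.65 ± 0.76 and -0.40 ± 0.70, and *Cxcl2* differed by -5.00 ± 1.5 in the second (adjusted p = 0.291, edgeR). Without knockout replicate 17 the direction thus turned for *Cxcl2* and *Cxcl5* but not for *Cxcl1*. In the second run it turned for *Cxcl1* and *Cxcl2*.

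In the order of group medians, a *Nckap1l* group stood highest for every member. The lowest was a *Gpsm3* group for *Cxcl1*, *Cxcl2*, *Cxcl3* and *Cxcl5*, the *Dok3* knockout for *Ppbp* and the *Dock2* wild type for *Csf3*. Neighbouring groups in this order overlapped in their ranges for all 6 members.

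A single fit of all 160 libraries also gave the members that were too low for the fits of single lines, and it called no member in any line. For *Csf3*, the difference was -0.13 ± 0.87 in *Nckap1l*, -1.35 ± 0.94 in *Dock2*, 0.85 ± 0.85 in *Gpsm3* and 1.5 ± 0.74 in *Dok3*, with the lowest adjusted p at 0.925 in edgeR. For *Cxcl3* it was 0.11 ± 1.1, -0.89 ± 1.03, 1.02 ± 0.98 and 1.58 ± 0.90, in the same order of lines. For *Ppbp* it was 2.40 ± 1.26, -1.45 ± 1.12, 0.99 ± 1.11 and 0.16 ± 0.95.

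Without the 32 libraries with skin keratin RNA, the single fit called members in *Nckap1l* only. There 507 of 19605 genes (2.59%) were called, and 3 members were lower in knockout, *Csf3* at -4.82 ± 1.28 (adjusted p = 0.0185), *Cxcl1* at -3.36 ± 0.94 (0.0275) and *Ppbp* at -2.14 ± 0.60 (0.0304) in edgeR. *Ppbp* had been 2.40 with those libraries. In the fit of the *Nckap1l* line alone without these libraries, *Cxcl1* did not pass, and *Csf3* and *Ppbp* were too low to be tested. The calls rested on single libraries among 9 knockout and 7 wild type. Without wild type replicate 8 or without wild type replicate 10, which were the highest of the 16 in *Cxcl1* and *Csf3*, no member passed. The number of members passing was 1 without knockout replicate 10, 11, 13 or 15, 2 without replicate 12, and all 6 without replicate 9. The count of all genes called varied between such fits as well. It was 50 of 19714 without wild type replicate 8 and 622 of 19599 without knockout replicate 7, and it is not given for the others. Without wild type replicate 8 and without wild type replicate 10, respectively, *Ppbp* was at -2.13 ± 0.62 (adjusted p = 0.101) and -0.59 ± 0.66 (0.82) in edgeR. In the same order of fits, *Csf3* was at -3.77 ± 1.24 (adjusted p = 0.178) and -4.51 ± 1.35 (0.0871) in edgeR. In the other lines *Ppbp* was at -0.56 ± 0.47 in *Dock2*, -0.05 ± 0.44 in *Gpsm3* and -0.52 ± 0.46 in *Dok3*, and no member passed.

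**Figure D2:**
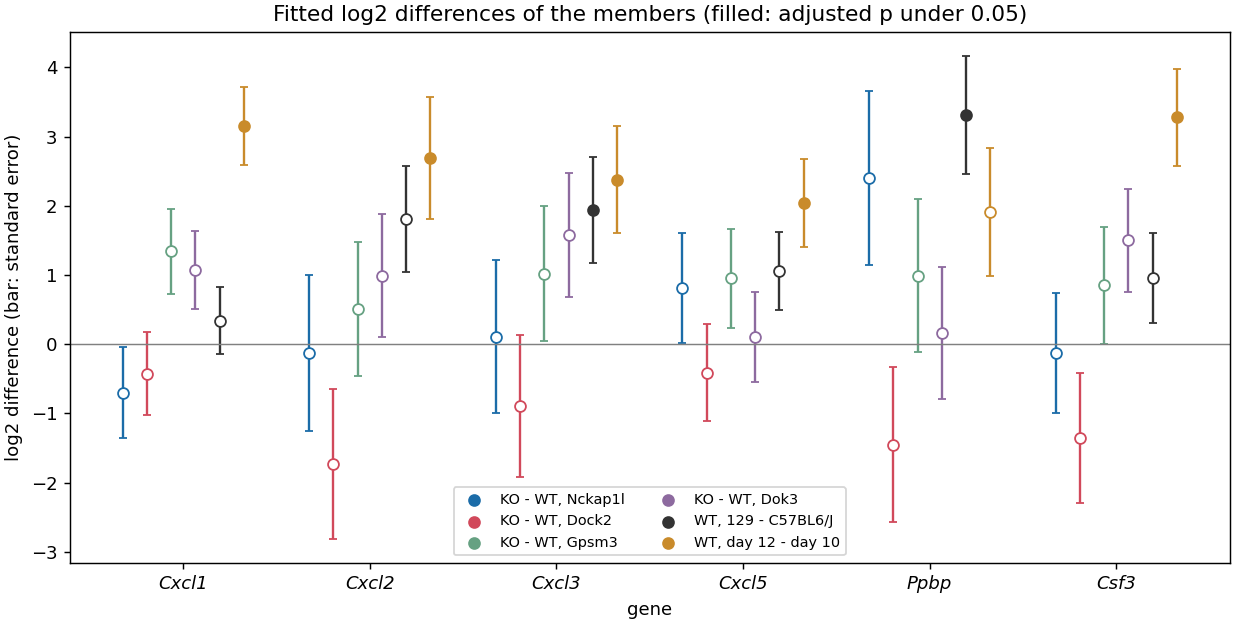
Fitted log2 difference of each member (y axis) with its standard error as a bar, for knockout minus wild type in each line from the single fit of all 160 libraries and for both comparisons between wild-type groups, with filled points where the adjusted p was under 0.05. No knockout difference is filled, and the wild-type comparisons hold the calls, 5 on day 12 against day 10 and 2 in 129 against C57BL6/J.

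Whether the knockout difference itself varied between the lines was tested by the interaction of line and genotype. Of 19849 genes, 137 (0.69%) passed, none of them a member. *Cxcl1* had an unadjusted p of 0.0403 and an adjusted p of 0.82, and the others had an adjusted p of 1.0 (edgeR). Without the 32 libraries with skin keratin RNA, *Csf3* (adjusted p = 0.00927, edgeR) and *Cxcl1* (adjusted p = 0.0148, edgeR) passed, beside 1.99% of all genes. That fit holds the same 9 knockout and 7 wild-type libraries of *Nckap1l*, replicates 8 and 10 among them.

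The next question was how the levels differed between wild-type groups. On day 12 (*Nckap1l* wild type), 5 of the 6 members were higher than in the C57BL6/J wild-type mice of day 10 (*Dock2* and *Gpsm3*), where 31.6% of 19060 genes were called in either direction and 18.4% were higher. *Cxcl1* was higher by 3.15 ± 0.56 on the log2 scale (adjusted p = 0.000131), *Csf3* by 3.28 ± 0.70 (0.000869) and *Cxcl5* by 2.04 ± 0.63 (0.0135), all from edgeR. *Cxcl2* was higher by 2.69 ± 0.88 (adjusted p = 0.0171, edgeR) and *Cxcl3* by 2.38 ± 0.78 (adjusted p = 0.018, edgeR). *Ppbp* differed by 1.91 ± 0.92 (adjusted p = 0.0991, edgeR). Day cannot be told apart from line, DSS dose and the share of treated mice. In males alone no member passed (0.633% of genes did), and in the comparison with *Dock2* wild type only, *Csf3* and *Cxcl1* passed (15.4% of genes). Without *Nckap1l* wild type replicate 10, the library of that group highest in *Cxcl1*, *Cxcl2*, *Cxcl5* and *Csf3*, the same pair passed (18.8% of genes). Without the libraries with skin keratin RNA all 6 passed (9.7% of genes), *Ppbp* at 1.91 ± 0.47 (adjusted p = 0.00684, edgeR).

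Genes that act upstream of the members or on the cells they draw were higher in the same comparison, in which 18.4% of all genes were higher. These lists were counted in the main fit only, and not in males alone or without the libraries with skin keratin RNA. Of the receptors, all 3 that could be tested were higher. *Cxcr2* was higher by 2.01 ± 0.75 (adjusted p = 0.0349, edgeR) and *Csf3r* by 1.69 ± 0.59 (adjusted p = 0.0238, edgeR). *Ackr1*, which binds chemokines at the vessel wall, was higher by 0.72 ± 0.18 (adjusted p = 0.00388, edgeR). Of 10 tested upstream cytokines and their receptors, 8 were higher (*Il1a*, *Il1b*, *Il1r1*, *Tnf*, *Tnfrsf1a*, *Il6*, *Il36a* and *Il36g*, the last pair listed as *Il1f6* and *Il1f9*), and the interleukin-17 receptor gene *Il17rc* was lower by 0.25 on the log2 scale. *Il6* differed most, by 4.21 ± 0.75, and *Il1b* by 2.76 ± 0.75. Of 11 regulators of NF-kB signalling and of the decay of chemokine messenger RNA, 10 were higher, with a median log2 difference of 0.44. The neutrophil list had 9 of 14 tested genes higher, with a summed level of 51.1 to 2019 CPM in *Nckap1l* wild type, 25.02 to 2673 in *Dock2* and 42.4 to 1237 in *Gpsm3*. Striated muscle genes (6 of 7 higher) and skin genes (3 of 8 higher) moved in the same comparison, and their part in it was not tested.

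Wild-type mice of the line labelled 129 were compared with the C57BL6/J wild type of day 10. Here *Ppbp* was higher by 3.31 ± 0.85 on the log2 scale, 9.95-fold (adjusted p = 0.00228, edgeR), and *Cxcl3* by 1.94 ± 0.77, 3.84-fold (adjusted p = 0.0494, edgeR). These were 2 of 6 members, beside 28.8% of 19060 genes called in either direction and 17.6% higher. *Cxcl2* differed by 1.81 ± 0.77 (adjusted p = 0.0664), *Cxcl5* by 1.06 ± 0.56 (0.142), *Csf3* by 0.95 ± 0.65 (0.269) and *Cxcl1* by 0.34 ± 0.48 (0.63) in edgeR. Without the libraries with skin keratin RNA, *Ppbp* turned to -0.21 ± 0.46 (adjusted p = 0.819, edgeR) and no member passed (16.2% of genes did). Skin genes were higher for *Krt15* and *Sbsn* only, of 8 tested, and the summed skin level ran from 10.2 to 10130 CPM in *Dok3* wild type. Without *Dock2* wild type replicate 13 all 6 members passed, without *Gpsm3* wild type replicate 14 there were 4 (31.4% of genes in each), and without *Dok3* wild type replicate 18 *Ppbp* alone did (26.1%). Strain, line, dose and the share of treated mice cannot be told apart. The neutrophil list had 4 of 14 genes higher and the upstream list 2 of 10 (*Il1a* and *Il36g*), whereas 0 of 3 receptors and 0 of 11 regulators passed. Fibroblast genes (5 of 6), T cell genes (4 of 5) and endothelial genes (3 of 4) were higher and 4 of 8 colon epithelium genes lower, and their part was not tested.

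Females and males could be compared in the *Nckap1l* and *Dock2* lines. In *Dock2*, where 9.75% of genes were called, *Cxcl1* was lower in females by 1.57 on the log2 scale (SE 0.56, adjusted p = 0.0641, edgeR) and did not pass. Its level ran from 0.253 through 0.912 to 6.22 CPM in 20 females and from 0.295 through 1.22 to 54.0 CPM in 22 males. *Cxcl5* differed by -0.67 ± 0.63 (adjusted p = 0.534, edgeR). Without wild type replicate 13, a male, the differences were -0.37 ± 0.37 and 0.17 ± 0.56. Without the libraries with skin keratin RNA both passed, at -1.81 (adjusted p = 0.0319) and -2.23 (adjusted p = 0.00804) in edgeR, beside 18.3% of genes. That fit still held wild type replicate 13, the highest *Dock2* library in both genes, and no fit left out both it and the skin libraries. With no filter on low counts *Ppbp* passed at 3.77 (adjusted p = 0.0452, edgeR), beside 4.69% of genes. In *Nckap1l*, where 0.178% of genes were called, no member passed, and *Ppbp* differed by 2.38 ± 1.23 (adjusted p = 0.34, edgeR), and was too low to be tested without the libraries with skin keratin RNA.

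Sample numbers in the titles form separate runs in 3 lines, and the labels do not say what a run is. No member passed between runs in edgeR, against 20.6% of genes for run 2 and 31.1% for run 3 relative to run 1 in *Nckap1l*, 7.93% in *Gpsm3* and 0.125% in *Dok3*. In *Nckap1l*, *Cxcl2* was nearest to a call in run 2, at 3.75 ± 1.48 (adjusted p = 0.0701, edgeR), followed by *Ppbp* in run 3, at -3.69 ± 1.6 (adjusted p = 0.0771, edgeR). All 8 skin genes and all 7 striated muscle genes were lower in run 3 as well.

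The 5 members other than *Ppbp* rose and fell in the same libraries. After the mean of each line and genotype was removed, the 10 pairs of *Cxcl1*, *Cxcl2*, *Cxcl3*, *Cxcl5* and *Csf3* had a Pearson r of 0.792 to 0.944 and a Spearman rho of 0.691 to 0.892 over 160 libraries. The permutation p was 1e-05 for each, the smallest that 100000 permutations can give, and the adjusted p over all 15 pairs was 1.071e-05. The strongest pair was *Cxcl2* with *Cxcl3* (r = 0.944). Leaving out the 2 libraries farthest from the median, r was 0.772 to 0.939. Within lines it was 0.678 to 0.97, and within the 8 runs of sample numbers 0.509 to 0.984.

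Genes of several cell types were correlated with these 5. The mean log2 level of 14 measured neutrophil genes had an r of 0.96 with *Cxcl2*, 0.95 with *Cxcl3*, 0.90 with *Cxcl5* and 0.87 with *Cxcl1* and with *Csf3*, with rho of 0.73 to 0.90 (permutation p = 1e-05, adjusted over 96 relations to 1.5e-05). The neutrophil gene *Ly6g* had an r of 0.23 with *Cxcl2*. Macrophage genes (mean of 7, r of 0.73 to 0.82 with the 5 members) and fibroblast genes (mean of 6, 0.70 to 0.83) were correlated with them as well. Among the receptors, *Csf3r* and *Cxcr2* had an r of 0.92 and 0.91 with *Cxcl2*, and *Ackr1* had 0.68. *Csf3r* ran from 0.572 to 270.5 CPM, *Cxcr2* from 0 to 143.1 CPM and *Ackr1* from 2.39 to 21.7 CPM, while *Cxcr1* was at 0 counts in 63 libraries and reached 2.11 CPM. The mean of 8 colon epithelium genes went the other way, with r of -0.60 for *Cxcl2* and -0.62 for *Cxcl5*. The neutrophil list holds *Cxcr2* and *Csf3r*, so these lists are not separate, and all values come from the same libraries. Leaving out the 2 libraries farthest from the median, the neutrophil r was 0.86 to 0.95.

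The genes most like each member were ranked by r among 19595 genes over the 160 libraries. For *Cxcl2* they were *Il1b* (0.958), *Clec4e* (0.956), *Acod1* (0.954), *Trem1* (0.953) and *Hdc* (0.950). For *Cxcl3* they were *Hdc* (0.946), *Cxcl2* (0.944), *Trem1* (0.933), *Il1b* (0.927) and *Slc7a11* (0.926). *Il1b*, which encodes an interleukin-1, and *Trem1*, a receptor of neutrophils and monocytes, stood in both lists. For *Cxcl1* they were *Socs3* (0.901), *Il4ra* (0.901), *Tnfrsf1b* (0.896), *Plek* (0.892) and *Icam1* (0.890), and for *Cxcl5* they were *Itgav* (0.916), *Selp* (0.913), *Il1b* (0.911), *Cxcl3* (0.907) and *Il4ra* (0.906). For *Csf3* they were *Stfa2l1* (0.898), *Gm5483* (0.893), *Mirt2* (0.887), *Cxcl3* (0.883) and *Osm* (0.882).

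**Figure D3:**
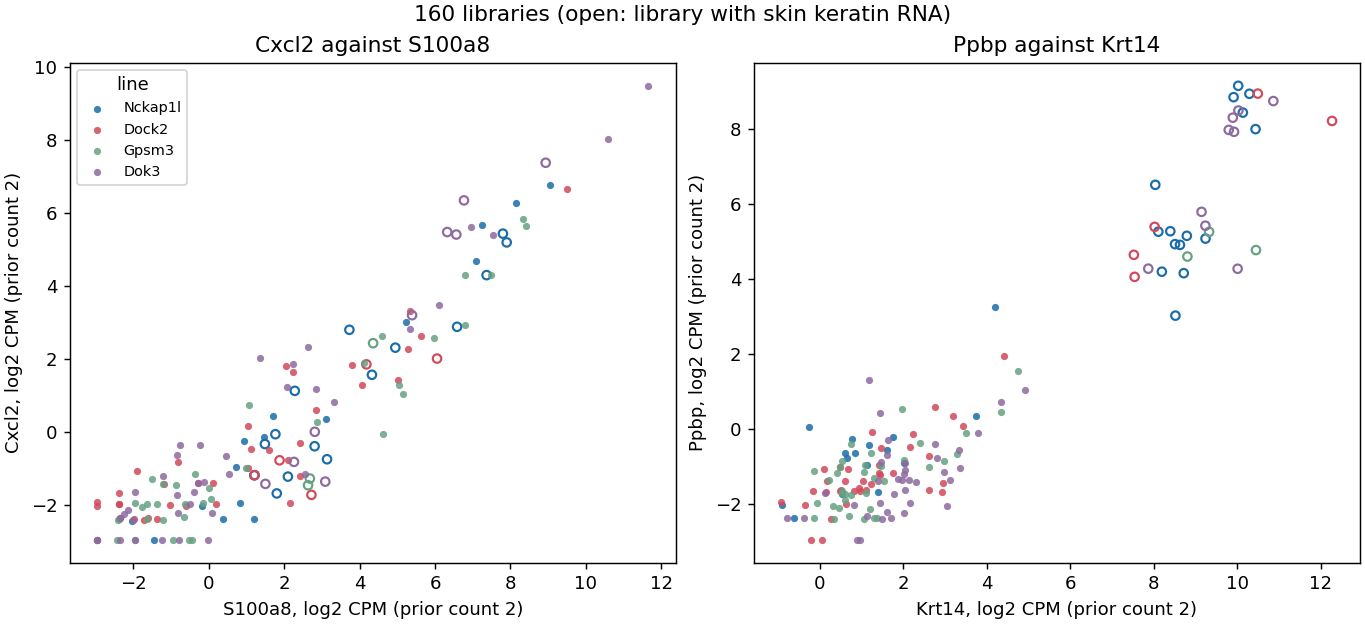
*Cxcl2* against the neutrophil gene *S100a8* (left) and *Ppbp* against the skin keratin gene *Krt14* (right), both axes in log2 CPM with a prior count of 2, with 1 point per library, coloured by line, and open points for libraries that hold skin keratin RNA. *Cxcl2* is high where *S100a8* is high among filled and open points alike, and *Ppbp* is at 8.02 CPM or more in the 32 libraries with skin keratin RNA and at most 9.48 CPM in the other 128.

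*Ppbp* was high in the libraries that held skin keratin RNA. In the 32 libraries with skin keratin RNA it ran from 8.02 through a median of 40.3 to 569.4 CPM, and in the other 128 from 0 through 0.267 to 9.48 CPM. Only 1 of the 128 was above the lowest of the 32, namely *Nckap1l* wild type replicate 10. By the exon lengths given above, *Ppbp* was the largest of the 5 chemokines per kilobase in 31 of the 32 libraries, with a median share of 77.8%. It was the largest in 2 of the 128, with a median share of 5.0%. The same order held in every line, with medians of 38.3 against 0.510 CPM in *Nckap1l*, 41.9 against 0.251 in *Dock2*, 27.3 against 0.276 in *Gpsm3* and 243.4 against 0.263 in *Dok3*.

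The 5 genes most like *Ppbp* were *Tmprss11g* (r = 0.964), *Gm9573* (0.951), *Ankk1* (0.951), *Sprr2d* (0.947) and *Tmprss11d* (0.946). *Sprr2d* encodes a protein of the cornified envelope of stratified epithelium. Because the libraries form separate clusters in *Ppbp*, these values rest on the contrast between them, and no r of *Ppbp* with the other members over all libraries is given. *Pf4*, the neighbour of *Ppbp* and a defining platelet gene, ran from 8.43 to 28.3 CPM in the 32 libraries and from 2.72 to 26.8 CPM in the 128, so that the 2 sets overlapped, and the platelet genes *Gp9* and *Treml1* reached 0.502 and 0.499 CPM. The summed level of the 8 platelet genes ran from 46.6 through 64.7 to 105.1 CPM in the 32 and from 23.5 through 51.3 to 115.9 CPM in the 128. Of the 6 measured platelet genes, *Itga2b* (0.75), *Gp1bb* (0.66) and *Pf4* (0.64) had the highest r with *Ppbp* over all libraries and *Gp6* the lowest (-0.44), values that also span both clusters. Their mean had an r of 0.53 with *Ppbp* over all libraries and 0.08 within the 32 (rho = 0.08, permutation p = 0.6871).

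Within the 32 libraries a gap in *Ppbp* separated 20 at 8.02 to 91.3 CPM from 12 at 243.4 to 569.4 CPM. *Cxcl5* ran from 4.34 to 178.0 CPM in the 20 and from 90.3 to 423.3 CPM in the 12, and *Cxcl3* from 0.114 to 4.07 and from 9.68 to 70.6 CPM. *S100a8* ran from 2.18 to 20.4 and from 18 to 489.5 CPM, and *Krt14* from 184.2 to 1399 and from 890.1 to 4945 CPM. *Cxcl3* did not overlap between them, and *Cxcl5* overlapped only through *Nckap1l* wild type replicate 15, the other 19 of the 20 libraries being at or below 16.6 CPM. *Pf4* ran from 8.43 to 16.9 and from 10.6 to 28.3 CPM. The 12 comprised 5 libraries of *Nckap1l*, 5 of *Dok3* and 2 of *Dock2*. These sets were formed from *Ppbp* itself, and the share of all genes without overlap between them is not given. The values are therefore a description and not a result particular to these members.

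**Figure D4:**
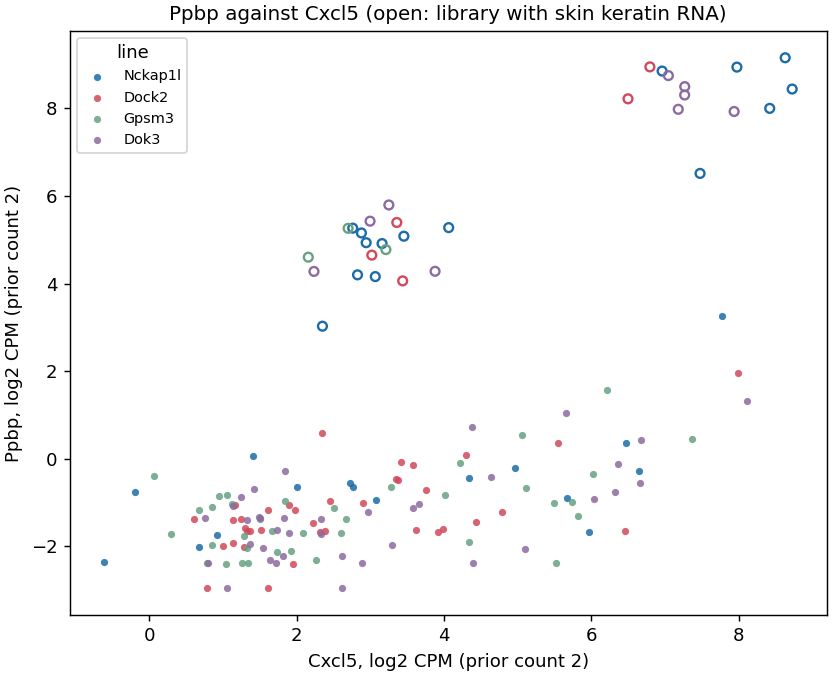
*Ppbp* against *Cxcl5* in every library, both axes in log2 CPM with a prior count of 2, with 1 point per library, coloured by line, and open points for libraries that hold skin keratin RNA. Among the 128 libraries without it *Ppbp* stays at or below 9.48 CPM even where *Cxcl5* is high, and among the 32 with it the 12 highest in *Ppbp* have *Cxcl5* at 90.3 CPM or more.

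Within the 32 libraries *Ppbp* had an r of 0.934 with *Cxcl3*, 0.925 with *Cxcl5*, 0.846 with *Csf3*, 0.805 with *Cxcl2* and 0.666 with *Cxcl1*, with rho of 0.67 to 0.89 (permutation p of at most 0.00012). Leaving out the 2 libraries farthest from the median, r was 0.666 to 0.925. In the same libraries the 10 pairs of the other members had an r of 0.817 to 0.961. There *Ppbp* had an r of 0.87 with the mean of the neutrophil genes (rho = 0.83, permutation p = 1e-05) and 0.40 with that of the skin genes (rho = 0.49, permutation p = 0.03726, adjusted p = 0.05589 over 18 relations). For these values only the mean of each line was removed, so differences between knockout and wild type remain in them. They also span the gap between the 20 and the 12.

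Among the 128 libraries without skin keratin RNA, the r of *Ppbp* was 0.646 with *Cxcl3*, 0.613 with *Cxcl2*, 0.595 with *Cxcl5*, 0.550 with *Csf3* and 0.524 with *Cxcl1*, with rho of 0.492, 0.459, 0.472, 0.310 and 0.354 (permutation p = 1e-05 for each r, and 6e-05 and 0.00048 for the rho of *Cxcl1* and *Csf3*). Leaving out the 2 libraries farthest from the median, r was 0.443 to 0.606. Here too only the mean of each line was removed, and not that of each genotype. In these libraries it had an r of 0.62 with the mean of the neutrophil genes (rho = 0.48), 0.61 with that of the skin genes (rho = 0.56) and -0.01 with that of the platelet genes (rho = -0.06, permutation p = 0.8681). *Ppbp* was under 3 counts in 34 of all 160 libraries, and its level in most of the 128 was near that of a few reads.

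Other genes of the chromosome 5 cluster and other colony-stimulating factors differed from the members. *Cxcl15*, which lies inside the cluster, was at 0 counts in 125 libraries and reached 1.11 CPM. *Csf2* (GM-CSF) was at 0 counts in 81 libraries and reached 0.432 CPM. *Csf1*, the growth factor of macrophages, was counted in every library at 13.8 to 106.7 CPM. *Il17a*, which acts on stromal and epithelial cells to raise the members, was at 0 counts in 93 libraries and reached 2.10 CPM, while *Il1b* ran from 0.5001 to 674.9 CPM and *Tnf* from 0.260 to 43.1 CPM. In the knockout comparisons of single lines no gene of the receptor, upstream cytokine or regulator lists passed in any line. In the *Gpsm3* line *Csf3r* differed by 1.07 ± 0.59 and *Il1b* by 1.27 ± 0.78, each with an adjusted p of 0.936 in edgeR.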

How the data were processed

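RNA from distal colon of 160 mice was sequenced as single 100-base reads after removal of ribosomal RNA (stranded kit). The authors aligned reads to mm10 with STAR, and the deposited values are raw counts per gene made with featureCounts (Subread). The versions are not given in the sources used here. Groups came from the labels, and each sample was taken as a separate mouse. No libraries agreed within sampling noise.

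The members and gene lists were chosen with earlier results of these data known. Every member was named in every comparison, with the 5 genes most like each by Pearson r, the receptors, and list genes past the threshold. Other genes (*Pf4*, *Krt14*, *S100a8* and genes at low counts) and single libraries were named after their values were seen.

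Counts were tested per line with edgeR 4.0.16 in R 4.3.3 (TMM, filterByExpr, quasi-likelihood, Benjamini-Hochberg over all genes tested, threshold 0.05), with sex as a covariate in *Nckap1l* and *Dock2*. The wild-type contrasts used 80 wild-type samples with a mean per line and sex as a covariate. CPM were scaled by TMM over all samples, and log2 CPM used a prior count of 2. Correlations used scipy 1.17.1 and numpy 2.4.6 with 100000 permutations. Over all libraries, the mean of each line and genotype was removed and permutation was within line and genotype. Among only the libraries with skin keratin RNA, or only those without it, the mean of each line was removed and permutation was within line. Differences between knockout and wild type therefore remain in those values. The fit was checked on simulated data. DESeq2 1.42.0, limma-voom (limma 3.58.1), surrogate variables (sva 3.50.0), other filters and size factors were alternatives. The single fit of all lines (with and without skin RNA and, in *Nckap1l*, without each remaining library), fits within runs, females alone, single reference lines, and fits without skin RNA, without libraries whose sex markers went against the label or without single libraries were added after seeing the data. In any library, 3 counts mark the level below which a value was not read as different from 0, for counting error only.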

Additional observations from a re-analysis of the deposited data

Results flagged for a closer look

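Within groups of the same line, genotype, sex and run of sample numbers with 4 to 10 libraries, the highest or lowest library was compared with the others by Dixon's ratio. Of 72 sets of gene and group, 14 had a library that stood apart, where chance gives about 1 in 20 (3.6 sets).

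*Ppbp* accounted for 4 of them, and each of these libraries held skin keratin RNA. *Dock2* knockout replicate 13 had 297.5 CPM of *Ppbp* where the next library of its group had 0.592 CPM, and it also stood apart in *Cxcl3* (9.679 against 0.329 CPM) and *Csf3* (1.737 against 0.189 CPM). *Nckap1l* knockout replicate 8 had 255.7 CPM of *Ppbp* where the next had 0.734 CPM. *Gpsm3* wild type replicate 10 had 27.26 CPM of it (next 0.499 CPM), and *Dok3* knockout replicate 23 had 19.29 CPM (next 0.796 CPM).

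*Gpsm3* wild type replicate 14, without skin keratin RNA, stood apart in 4 members, with 7.77 CPM of *Cxcl1*, 56.87 CPM of *Cxcl2*, 15.05 CPM of *Cxcl3* and 3.885 CPM of *Csf3*. The next libraries of its group were at 1.56, 1.07, 0.858 and 0.257 CPM. Its *S100a8* level was 324.0 CPM.

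*Nckap1l* wild type replicate 8 had 33.54 CPM of *Cxcl1* where the next had 3.45 CPM. *Nckap1l* knockout replicate 14 had 1.226 CPM of *Cxcl2* and 0.3677 CPM of *Cxcl3*, where the next libraries had 0.115 and 0 CPM. Apart from the 1.226 CPM of *Cxcl2*, these values were near the level of a few reads. *Dok3* knockout replicate 19 had 0.9187 CPM of *Csf3* where the next had 0.188 CPM.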

How the results depend on the processing

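No knockout comparison called a member under any alternative run, except the single fit of all lines without libraries with skin RNA. That fit called 3 in *Nckap1l*, beside 2.59% of all genes, and 0 to 6 leaving out single libraries. The count of all genes called varied between these fits as well. In the interaction of line and genotype the count of members called went from 0 to 2 without libraries with skin RNA (1.99% of genes). Between females and males of *Dock2* it went from 0 to 1 with no filter beyond 1 count (4.69% of genes). It went to 2 without libraries with skin RNA (18.3% of genes), in a fit that still held wild type replicate 13. In *Nckap1l*, run 2 against run 1 went from 0 to 2 with DESeq2 and 1 with limma-voom, and run 3 from 0 to 1 with each. For run 2 these methods called 4269 of 17871 and 4165 of 17947 genes. For run 3 they called 6152 of 17871 and 5579 of 17947 genes. For 129 against C57BL6/J the count was 2 (28.8% of genes). It was 1 with DESeq2 (5592 of 19013 genes called), no filter (6054 of 32519), RLE size factors (5508 of 19060) and in males only (4029 of 19603). It was 0 with limma-voom (4684 of 19060), without libraries with skin RNA (16.2%) and against *Dock2* wild type only (2022 of 19060). Without the libraries of low depth it was 6, and 6519 of 19033 genes were called. Leaving out single libraries it ran from 1 to 6, beside 26.1% to 31.4% of genes. For day 12 against day 10 the count was 5 (31.6% of genes). It was 0 in males only (0.633%) and 2 against *Dock2* wild type only (15.4%). Leaving out single libraries it was 2 to 5, with 3602 of 19138 to 6741 of 19051 genes called.

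The direction of some log2 differences turned, all but *Ppbp* in 129 against C57BL6/J (-0.21 without libraries with skin RNA) being differences that were not called under the main design. For knockout minus wild type in *Nckap1l*, *Cxcl1* turned to 0.18 in females and 1.23 in run 1, *Cxcl2* to 2.0 in females, 0.21 with run as a covariate and 2.26 in run 1, *Cxcl5* to -0.29 with limma-voom, -0.05 in run 2, -2.87 in run 3, -2.62 without skin RNA and -2.95 in the single fit of all lines without it (-3.69 to -2.12 leaving out single libraries), and *Ppbp* to -0.2 with 2 surrogate variables and -2.14 in that single fit (-2.32 to -0.59). In *Dock2*, *Cxcl1* turned to 0.34 with limma-voom, 0.33 with surrogate variables, 0.63 in females and 0.90 without low-depth libraries or without wild type replicate 13, and *Cxcl5* to 0.17, 0.06, 0.19 and 0.45 in the same order. In *Dok3*, *Cxcl1* turned to -0.4 in run 2, *Cxcl2* to -0.79 with limma-voom, -5.0 in run 2 and -0.62 without knockout replicate 17, and *Cxcl5* to -0.44 with limma-voom, -0.3 with surrogate variables, -0.08 with run as a covariate, -1.31 in run 2, -0.35 without skin RNA (in both fits) and -0.26 without knockout replicate 17. For females minus males, *Cxcl1* in *Nckap1l* turned to -0.12 with limma-voom and -0.58 without skin RNA, *Cxcl2* to 2.45 with run as a covariate, *Cxcl5* to -1.27 without skin RNA, and *Cxcl5* in *Dock2* to 0.17 without low-depth libraries or without wild type replicate 13. Without skin RNA, run 2 minus run 1 in *Nckap1l* turned to -3.1 for *Cxcl1*, -2.44 for *Cxcl2* and -3.91 for *Cxcl5*, and in *Dok3* to 0.23 for *Cxcl1* and 0.72 for *Cxcl5* (0.49 with limma-voom). In 129 against C57BL6/J, *Cxcl1* turned to -0.05 without skin RNA and -0.52 against *Dock2* only. The cause was not tested.

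Of the other log2 differences, 395 kept their direction and their side of the threshold, 32 came to pass it and 22 ceased to. All 120 correlations recomputed stayed on the same side, and all 96 median levels recomputed stayed within the spread between libraries. That spread was wide beside the medians. For *Cxcl2* in *Dok3* knockout, the median was 0.285 CPM in a range from 0 to 715.2 CPM. The check of the medians was thus too loose to fail and does not show that they were stable. No paired analysis was possible because the labels give no replicate numbers that tie samples across groups. *Csf3* was under 3 counts in 98 libraries, so small differences in it were not detectable at this depth.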
